A study of Mus musculus with 30 samples.

Results

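The 40 genes described here encode enzymes of the lysosome, the proteins that help or restrain them, the proteins of its membrane, and subunits of the pump that acidifies it. They form a list of gene names, drawn up with earlier results of these data known, and every probe set that the array annotation gave to a member was followed in kidneys of young, old and old calorie-restricted mice. Of the 40 genes, 32 had a named probe set, with 43 probe sets in all, 29 on the first array type and 14 on the second. Ctsz, Tpp1, Asah1, Lipa, Arsb, Npc2, Atp6v0c and Atp6v1f had no named probe set and were not analysed here. A level high enough to be tested was reached by 36 probe sets of 30 genes, out of 4512 tested probe sets in all. The macrophage-rich lysosomal genes Ctss, Cd68 and Laptm5 are not members and appear below as values beside the members.

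Total RNA of whole kidney from C57BL/6 mice, an inbred strain, was measured on 1-colour oligonucleotide arrays of 2 types, marked by the letters A and B in the sample titles. Each of the 3 groups has 5 numbered animals with 1 array of each type. The young controls were 5 months old and control-fed, the old controls 30 months old and control-fed, and the calorie-restricted animals 30 months old and fed less food energy. Sources used here give neither the sex nor the degree and start of the restriction. The labels do not say that the 5 numbers of a group are separate mice; they are called animals here, and if they are not, the p-values measure a spread that may be technical. The comparisons that the labels name are old against young controls, called ageing below, and calorie-restricted against old controls, called diet below. Calorie-restricted against young controls was added after values had been seen.

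Lysosomes are acid compartments in which cells break down proteins, sugars, lipids and whole organelles. A vacuolar proton pump, built from a membrane sector and a cytosolic sector that splits ATP, holds the inside acid, and most of the hydrolases work only there. In the kidney the lysosomes of the proximal tubule degrade the proteins that the tubule takes back from the filtrate. Many lysosomal genes share a promoter element with the core letters CACGTG, bound by the transcription factor TFEB and its relatives.

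To place the members in the genome, the stretches just before the gene starts of the 3 genes that passed a test below (Glb1, Cd63 and Lamp2) and of 3 members whose windows hold the element (Lamp1, Ctsd and Atp6v1a) are shown. They are RefSeq sequences of build GRCm38.p6, each 250 bases up to the gene start, 5′ to 3′ on the strand of the gene. Capitals mark CACGTG, or TCACGTGA where the longer form is present.
Glb1, chr9:114400828-114401077, plus strand: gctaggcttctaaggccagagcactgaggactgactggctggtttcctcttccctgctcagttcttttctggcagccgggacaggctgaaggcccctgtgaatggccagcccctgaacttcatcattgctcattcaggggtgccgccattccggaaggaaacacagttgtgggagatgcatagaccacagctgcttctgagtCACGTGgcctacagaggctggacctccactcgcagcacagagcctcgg
Cd63, chr10:128909095-128909344, plus strand: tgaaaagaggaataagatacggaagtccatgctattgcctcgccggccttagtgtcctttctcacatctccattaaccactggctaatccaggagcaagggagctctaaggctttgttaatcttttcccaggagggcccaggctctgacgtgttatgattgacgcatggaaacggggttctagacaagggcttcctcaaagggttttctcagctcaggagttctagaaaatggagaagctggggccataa
Lamp2, chrX:38456461-38456710, minus strand: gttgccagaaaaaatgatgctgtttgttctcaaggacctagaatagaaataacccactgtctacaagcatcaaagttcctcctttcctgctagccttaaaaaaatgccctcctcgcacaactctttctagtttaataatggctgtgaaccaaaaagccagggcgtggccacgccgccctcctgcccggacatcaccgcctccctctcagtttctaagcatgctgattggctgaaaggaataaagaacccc
Lamp1, chr8:13158911-13159160, plus strand: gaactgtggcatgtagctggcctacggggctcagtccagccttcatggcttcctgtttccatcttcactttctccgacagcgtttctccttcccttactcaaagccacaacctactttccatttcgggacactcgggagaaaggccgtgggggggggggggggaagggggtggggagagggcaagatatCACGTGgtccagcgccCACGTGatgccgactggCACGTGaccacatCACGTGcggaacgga
Ctsd, chr7:142387828-142388077, minus strand: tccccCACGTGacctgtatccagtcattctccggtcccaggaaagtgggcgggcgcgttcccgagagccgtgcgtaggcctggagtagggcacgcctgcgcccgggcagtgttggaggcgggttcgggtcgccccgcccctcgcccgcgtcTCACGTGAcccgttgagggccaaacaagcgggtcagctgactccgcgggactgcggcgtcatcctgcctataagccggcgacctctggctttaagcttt
Atp6v1a, chr16:44139260-44139509, minus strand: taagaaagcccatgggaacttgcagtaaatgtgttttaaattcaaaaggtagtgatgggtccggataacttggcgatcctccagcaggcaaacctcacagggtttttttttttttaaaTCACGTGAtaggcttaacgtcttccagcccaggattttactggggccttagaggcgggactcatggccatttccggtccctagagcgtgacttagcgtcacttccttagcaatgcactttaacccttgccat

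The stretch of Lamp1 holds 4 copies of the short motif and that of Ctsd 2 copies. Glb1 and Atp6v1a hold 1 each, and the printed stretches of Cd63 and Lamp2 hold none. RefSeq windows around the gene start were found for 34 of the 40 members. Both motifs read the same on either strand, and each TCACGTGA also counts as a CACGTG. The short form was present in the windows of 12 members (35.3%), Arsa, Atp6v0d1, Atp6v0e, Atp6v1a, Ctsa, Ctsd, Ctsl, Gaa, Gla, Glb1, Lamp1 and Lgmn, against 8.09% of 27025 genes with a window of the same length. TCACGTGA was present in 6 members (17.6%), Atp6v0d1, Atp6v0e, Atp6v1a, Ctsa, Ctsd and Gla, against 1.12% of all genes. A match describes the letters and does not show that a factor binds there. The 14 tested probe sets of members with CACGTG had a median log2 change of -0.12 with age and -0.05 with the diet. The 17 tested probe sets of members whose window lacks it had medians of 0.02 and -0.12.

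Most lysosomal genes had changes that did not pass the test in kidneys of old or calorie-restricted mice. Glb1, the lysosomal beta-galactosidase, fell with age, and Cd63, a tetraspanin of late endosomes and lysosomes, rose with the diet, both near the threshold. The call was kept in 8 of 30 alternative analyses for Glb1 and in 14 of 32 for Cd63. Glb1 and Lamp2, a major protein of the lysosomal membrane, were lower in calorie-restricted than in young kidneys. A probe set passed at an adjusted p under 0.05 in limma over all tested probe sets, and changes are differences of log2 intensity after values below a background floor (1103 on the first array type, 1822 on the second) were raised to it.

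With age 0 of 36 member probe sets rose and 1 fell, against 2.95% higher and 2.11% lower among all tested probe sets. With the diet 1 rose and 0 fell, against 0.909% and 1.71%. Between calorie-restricted and young kidneys 0 were higher and 2 lower, against 2.95% and 2.77%. The shares of all probe sets include rows of the second array type that are exchanged on young arrays, as described below. Without such targets 150 of 4427 probe sets passed with age, against 228 of 4512 with them. Against young kidneys 169 passed, against 258, and with the diet 113, against 118. At an unadjusted p under 0.05 there were 5 member probe sets with age, 2 with the diet and 7 in the added comparison. These are 13.9%, 5.56% and 19.4% of the members, beside 16.2%, 14.6% and 18.0% of all tested probe sets. The median change of the members was -0.05 with age and -0.06 with the diet, and that of all tested probe sets was -0.04 and 0.03. The 95% interval lay within a log2 change of 1 either way for 27 member probe sets with age and 30 with the diet. A doubling or halving of the floored intensity lay outside the interval for these. Where animals lay under the floor, as for Glb1, Gusb and Arsa, a larger change in level is not excluded. Both named comparisons contain the old controls, so their values are given side by side and no relation between them is drawn. In whole-kidney RNA, fewer cells of a type and less RNA per cell cannot be told apart.

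**Figure D1:**
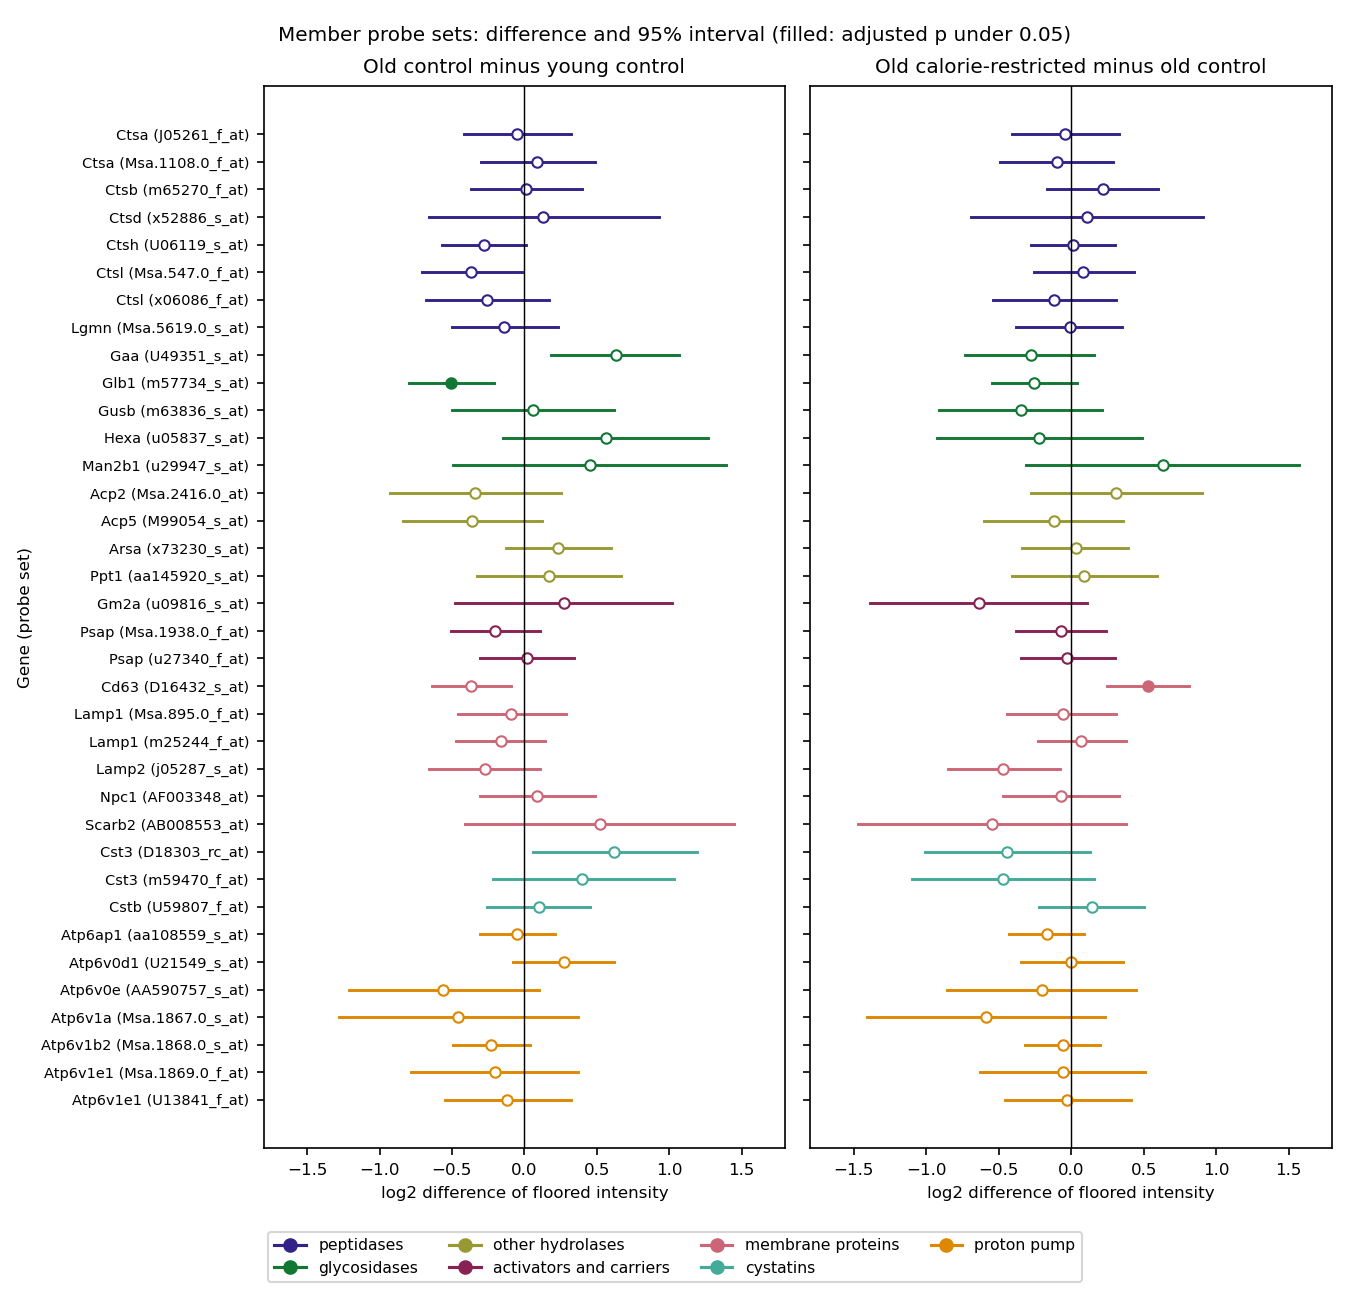
Change of each of the 36 tested member probe sets with age (left) and with the diet (right) as a difference of log2 floored intensity, where points are the fitted difference, lines its 95% interval and colours the role of the gene. The points lie between -0.64 and 0.63, and the filled points, which passed, are Glb1 with age at -0.51 and Cd63 with the diet at 0.53.

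The glycosidases remove sugars from glycolipids, glycoproteins and glycogen, and 5 of the 6 on the list were tested. Glb1 (probe set m57734_s_at) cleaves galactose from gangliosides and keratan sulfate. Its scaled intensity in young controls was 2077, 2150, 1901, 1407 and 1921 in animals 1 to 5. In old controls it was 1627, 1166, 928, 1308 and 1456. In calorie-restricted animals it was 715, 959, 766, 809 and 909. The young and old values overlapped, with 1 old control under the floor, whereas all 5 calorie-restricted animals lay under the floor and below every young animal. Glb1 fell with age by 0.51 ± 0.14 in log2 units (± is the SE here and for all changes below, n = 5 per group, 95% interval -0.80 to -0.21, adjusted p = 0.0455). Against the old controls the calorie-restricted value was -0.26 ± 0.14 (adjusted p = 0.419), a bound since that group lay at the floor. Against the young controls Glb1 was at least 1.70-fold lower in calorie-restricted kidneys (-0.76 ± 0.14, adjusted p = 0.00234).

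The age call of Glb1 stood near the threshold. The call was lost when targets of the second array type with rows exchanged on young arrays, described below, were left out (adjusted p = 0.0613). It was kept without young control 4 (adjusted p = 0.00964) or old control 1 (adjusted p = 0.0205), and was lost without any other animal of the 3 groups, with adjusted p from 0.0516 to 0.127. The change read -0.67 among numbers 1 to 3 (adjusted p = 0.0632) and -0.25 among numbers 4 and 5 (adjusted p = 0.562). The difference from young controls under calorie restriction was lost only among numbers 4 and 5 (-0.58, adjusted p = 0.236) of the 30 alternatives that gave it a value.

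The other glycosidases had positive age values that did not pass. Gaa (U49351_s_at), which degrades glycogen, read 4073, 2310, 2988, 2715 and 3383 in young and 4080, 5888, 6211, 3654 and 4178 in old controls. Only the brightest young animal lay inside the range of the old controls. The age value was 0.63 ± 0.21 (adjusted p = 0.119), and with the diet it was -0.28 ± 0.21 (adjusted p = 0.575). Hexa (u05837_s_at), the alpha chain of beta-hexosaminidase, read 0.56 ± 0.34 and -0.22 ± 0.34, Man2b1 (u29947_s_at), an alpha-mannosidase, 0.45 ± 0.44 and 0.63 ± 0.44, and Gusb (m63836_s_at), the beta-glucuronidase, 0.06 ± 0.26 and -0.35 ± 0.26. Man2b1 had the widest spread of all members, with a within-group SD of 0.795 on the log2 scale. Its old controls were 1344, 1197 and 741 in numbers 1 to 3 but 5431 and 5599 in numbers 4 and 5, and its calorie-restricted animals 3403, 2936, 4707, 2524 and 4094. Among numbers 1 to 3 alone Man2b1 was higher with the diet (1.58, adjusted p = 0.00941), which was not so over all animals (adjusted p = 0.547). Among numbers 4 and 5 the diet change had the opposite sign (-0.78, adjusted p = 0.642). The ageing change also differed in sign, at -0.36 among numbers 1 to 3 and 1.66 among numbers 4 and 5. Against young controls Man2b1 read 1.08 ± 0.44 over all animals (adjusted p = 0.205). It passed in a fit of these 2 groups only (adjusted p = 0.0437) and among numbers 1 to 3 (1.22, adjusted p = 0.02), but not among numbers 4 and 5 (0.88, adjusted p = 0.551). Gla, the alpha-galactosidase, was not tested, since its probe sets (u34071_s_at and another on the second array type) exceeded the floor on at most 3 arrays, with values between -436 and 1226.

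**Figure D2:**
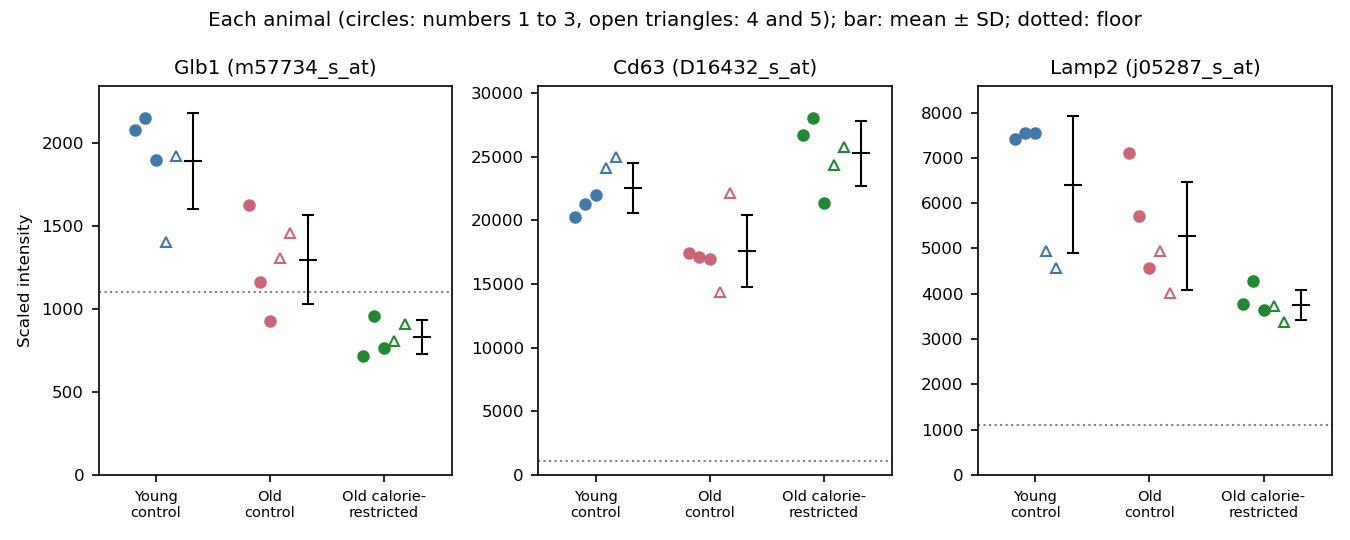
Scaled intensity of Glb1, Cd63 and Lamp2 in each animal (circles for numbers 1 to 3, open triangles for 4 and 5) with the mean and SD of the group and the background floor as a dotted line; the vertical axes start at 0 and differ between panels. All 5 calorie-restricted animals lie under the floor for Glb1, between 21381 and 28019 for Cd63, and between 3370 and 4277 for Lamp2, under the young animals at 4567 to 7547.

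Among the membrane proteins Cd63 (D16432_s_at), which sorts cargo in late endosomes, read 20220, 21291, 22003, 24125 and 24948 in young controls. Old controls had 17395, 17092, 16938, 14348 and 22137. Calorie-restricted animals had 26668, 28019, 21381, 24375 and 25780. Old control 5 lay above calorie-restricted animal 3, and otherwise the old and the calorie-restricted values did not overlap. Cd63 rose with the diet by 0.53 ± 0.13 (n = 5 per group, 95% interval 0.25 to 0.81, adjusted p = 0.0412), a 1.44-fold difference. With age it read -0.37 ± 0.13 (adjusted p = 0.146), and calorie-restricted against young kidneys 0.16 ± 0.13 (adjusted p = 0.56). The diet value was 0.56 among numbers 1 to 3 (adjusted p = 0.0455) and 0.49 among numbers 4 and 5 (adjusted p = 0.46). The call was kept without young controls 1, 4 or 5, old control 5 or calorie-restricted animal 3, with adjusted p from 0.0148 to 0.0494. It was lost without young controls 2 or 3, old controls 1 to 4, or calorie-restricted animals 1, 2, 4 or 5, with adjusted p from 0.0562 to 0.103 and changes from 0.46 to 0.54.

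Lamp2 (j05287_s_at), which also serves chaperone-mediated autophagy, read 7420, 7542, 7547, 4944 and 4567 in young controls. In old controls it was 7112, 5727, 4572, 4941 and 4023, and in calorie-restricted animals 3769, 4277, 3644, 3727 and 3370. Calorie-restricted and young values did not overlap, while old controls spanned the gap. Lamp2 was 1.67-fold lower in calorie-restricted than in young kidneys (-0.74 ± 0.18, 95% interval -1.12 to -0.35, adjusted p = 0.0211). Its ageing value was -0.27 ± 0.18 (adjusted p = 0.519) and its diet value -0.47 ± 0.18 (adjusted p = 0.241). The difference from young kidneys was -0.95 among numbers 1 to 3 (adjusted p = 0.0115) and -0.42 among numbers 4 and 5 (adjusted p = 0.246). Without young control 1, 2 or 3 or calorie-restricted animal 5 it was -0.70 to -0.67 and did not pass (adjusted p from 0.0568 to 0.0698).

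The other membrane proteins did not pass in any of the 3 comparisons. Lamp1, the other major membrane glycoprotein, gave ageing values of -0.09 ± 0.18 (second array type) and -0.16 ± 0.14 (m25244_f_at), and the diet values of these probe sets differed in sign, -0.06 and 0.07. Npc1 (AF003348_at), which exports cholesterol, read 0.09 ± 0.19 and -0.07 ± 0.19. Scarb2 (AB008553_at), the carrier that brings glucocerebrosidase to the lysosome, read 0.52 ± 0.44 with age and -0.55 ± 0.44 with the diet. Its values in numbers 1 to 3 were 2228, 2563 and 2037 in young, 3803, 5325 and 3985 in old and 2038, 2691 and 2221 in calorie-restricted animals, so that the old controls did not overlap the other groups there. Numbers 4 and 5 lay at 1257 and 229, 641 and 785, and 607 and 417, with 1 of the 6 above the floor. Among numbers 1 to 3 alone Scarb2 rose by 0.93 with age (adjusted p = 0.0225) and fell by 0.91 with the diet (adjusted p = 0.0231).

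Peptidases cut proteins into peptides and amino acids, and none of the 8 tested probe sets of 6 genes passed in any of the 3 comparisons. With age 5 were negative and 3 positive, between -0.37 and 0.13, and with the diet all lay between -0.12 and 0.22. The cysteine protease Ctsl, in 1 of its probe sets on the second array type, had the largest change. Its values were 17202, 21144, 19517, 16460 and 14079 in young controls, 17574, 15358, 12933, 11072 and 11918 in old controls, and 16543, 17379, 12366, 11814 and 14699 in calorie-restricted animals. The groups overlapped, and the ageing value was -0.37 ± 0.16 (95% interval -0.71 to -0.02, adjusted p = 0.272). The other Ctsl probe set (x06086_f_at) read -0.26 ± 0.20. The cysteine proteases Ctsh (U06119_s_at) and Ctsb (m65270_f_at) read -0.28 ± 0.14 and 0.01 ± 0.18 with age, and Lgmn (second array type), which cuts after asparagine, -0.14 ± 0.17. Ctsa, the carboxypeptidase that protects beta-galactosidase, had ageing values of opposite sign, -0.05 ± 0.18 (J05261_f_at) and 0.09 ± 0.19 (second array type). Ctsd (x52886_s_at), an aspartic protease, read 0.13 ± 0.38, with a within-group SD of 0.667.

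Ctsc, a dipeptidyl peptidase that activates serine proteases of leukocytes, was not tested, since at most 2 arrays of its probe sets exceeded the floor. Its probe set u89269_s_at read 575, 547, 643, 514 and 420 in young controls, 1155, 805, 1062, 1198 and 941 in old controls, and 861, 585, 1018, 535 and 756 in calorie-restricted animals. All old controls lay above all young controls, yet 3 of the 5 were under the floor. With the floor halved, Ctsc was tested and rose with age by 0.83 (adjusted p = 0.00869). Its other probe set (AA288280_s_at) read between -393 and 394. Of the remaining untested probe sets, Ctsb X54966_rc_at had 136 to 1357, Npc1 AF003348_g_at 186 to 1119 and Scarb2 AB008553_g_at 241 to 856.

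The hydrolases of phosphates, sulfates and thioesters gave 2 positive and 2 negative ageing values, between -0.36 and 0.23, and none of the 4 passed in any of the 3 comparisons. Acp5 (M99054_s_at), the tartrate-resistant acid phosphatase, read 4031, 3620, 2173, 3227 and 2802 in young controls, 2037, 1951, 2240, 3107 and 2969 in old controls, and 1642, 2478, 1948, 1870 and 3653 in calorie-restricted animals. The groups overlapped, with an ageing value of -0.36 ± 0.22 (adjusted p = 0.478) and a diet value of -0.12 ± 0.22 (adjusted p = 0.854). Acp2 (second array type), the lysosomal acid phosphatase, read -0.34 ± 0.28 and 0.31 ± 0.28. Arsa (x73230_s_at), which removes sulfate from sulfatide, read 0.23 ± 0.17 and 0.03 ± 0.17, and Ppt1 (aa145920_s_at), which removes palmitate from proteins, 0.17 ± 0.24 and 0.09 ± 0.24.

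Activators present lipids to the hydrolases. Gm2a (u09816_s_at), which lifts ganglioside GM2 out of the membrane for beta-hexosaminidase, read 6533, 6996, 7181, 16297 and 13290 in young controls, 6674, 10312, 8052, 18956 and 17255 in old controls, and 4416, 5667, 6632, 12390 and 9666 in calorie-restricted animals. In each group numbers 4 and 5 were above numbers 1 to 3, and the groups overlapped. The diet value was -0.64 ± 0.35 (95% interval -1.39 to 0.11, adjusted p = 0.436), with -0.58 among numbers 1 to 3 and -0.72 among numbers 4 and 5. When the fit held a term for the number set, this change passed (adjusted p = 0.0156). Psap, the precursor of the saposins, read -0.20 ± 0.15 (second array type) and 0.02 ± 0.15 (u27340_f_at) with age and -0.07 and -0.03 with the diet.

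The cystatins, which inhibit cysteine cathepsins, had positive ageing values in all 3 probe sets, with 0 passing over all animals. Cst3 (D18303_rc_at), a secreted cystatin whose blood level is used to estimate kidney filtration, read 4003, 5507, 4462, 6008 and 8934 in young controls. It read 5855, 8006, 6843, 11972 and 11994 in old controls and 5118, 7230, 4198, 9744 and 6725 in calorie-restricted animals. Each old control was above the young control of its number, but the numbers are not shown to mark matched animals, and the groups overlapped. The ageing value was 0.62 ± 0.27 (95% interval 0.06 to 1.19, adjusted p = 0.248). With the replicate number as a block the same change passed (adjusted p = 0.0311), as it did with a term for the number set alone (adjusted p = 0.034). With either the count of member probe sets called with age went from 1 to 2. All calls with age went from 228 to 274 and 344, respectively. The other Cst3 probe set (m59470_f_at) read 0.40 ± 0.30 and passed with neither term. There old control 2 (4972) lay below young control 2 (6023). The diet values of the 2 probe sets were -0.44 ± 0.27 and -0.47 ± 0.30. Cstb (U59807_f_at), an intracellular cystatin, read 0.10 ± 0.17 with age and 0.14 ± 0.17 with the diet.

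None of the 7 probe sets (6 genes) of the proton pump passed in any of the 3 comparisons. Of these 7, 6 were negative with age, 6 with the diet and 6 against young controls. Of all 4512 tested probe sets, 2482, 2034 and 2296 were negative in the same order. The change against young controls is the sum of the ageing and diet changes, so the counts are not separate. The median of the pump probe sets was -0.20 with age, -0.06 with the diet and -0.27 against young controls. In that last comparison 3 of 7 had an unadjusted p under 0.05, a share of 42.9% beside 18.0% of all tested probe sets. Atp6v1a (second array type), the catalytic subunit that splits ATP, read 10182, 13099, 11717, 4730 and 5729 in young controls. It read 8367, 10999, 5832, 5075 and 3211 in old controls and 5862, 6318, 4856, 1845 and 3421 in calorie-restricted animals. Numbers 4 and 5 were lowest in each group, and the groups overlapped over all numbers. The values were -0.46 ± 0.39 with age (adjusted p = 0.635), -0.59 ± 0.39 with the diet (adjusted p = 0.519) and -1.04 ± 0.39 against young controls (adjusted p = 0.15). Among numbers 1 to 3 all calorie-restricted animals lay below all young controls, and the difference of -1.04 passed there (adjusted p = 0.0317), as it did when the fit held a term for the number set (adjusted p = 0.00266).

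Atp6v0e (AA590757_s_at), a small subunit of the membrane sector, read -0.56 ± 0.31 with age, -0.20 ± 0.31 with the diet and -0.76 ± 0.31 against young controls (adjusted p = 0.198). Atp6v1b2 (second array type), the B subunit found in most tissues, had a small spread, with a within-group SD of 0.156, and read -0.23 ± 0.12, -0.06 ± 0.12 and -0.29 ± 0.12 (adjusted p = 0.236). Atp6v1e1, in the stalk of the pump, gave ageing values of -0.20 ± 0.27 (second array type) and -0.12 ± 0.20 (U13841_f_at). Atp6ap1 (aa108559_s_at), an accessory protein needed for assembly, read -0.05 ± 0.12 and -0.17 ± 0.12. Atp6v0d1 (U21549_s_at), which joins the sectors, was the exception in sign at 0.27 ± 0.17 with age and 0.00 ± 0.17 with the diet.

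Side by side, the median ageing changes were -0.09 for the peptidases, 0.45 for the glycosidases, -0.08 for the other hydrolases, 0.02 for the activators, -0.12 for the membrane proteins, 0.40 for the cystatins and -0.20 for the pump. The median diet changes were 0.00, -0.26, 0.06, -0.07, -0.07, -0.44 and -0.06 in the same order. These medians rest on 8, 5, 4, 3, 6, 3 and 7 probe sets, and the glycosidase median is positive although the probe set that passed, Glb1, fell. No difference between the roles was tested.

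The sample titles number the animals, and within every group numbers 1 to 3 and numbers 4 and 5 differed at many probe sets. The labels do not say what separates them. In 5 member probe sets (13.9%) numbers 4 and 5 were higher than numbers 1 to 3 without overlap in every group, against 6.67% of all tested probe sets, and in 2 (5.56%) lower, against 6.43%. Higher were Gm2a, Ctsd, Ctsa (second array type), Cst3 (m59470_f_at) and Atp6v1e1 (U13841_f_at), and lower were Scarb2 and Atp6v1a. The Ctsd means were 11830 and 19160 in young, 13180 and 22980 in old and 13160 and 23220 in calorie-restricted animals, for numbers 1 to 3 and numbers 4 and 5. The Atp6v1a means were 11670 and 5230, 8400 and 4143, and 5679 and 2633. The within-group SD on the log2 scale had a median of 0.301 over the members and 0.315 over all tested probe sets, from 0.149 for Atp6ap1 to 0.795 for Man2b1.

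**Figure D3:**
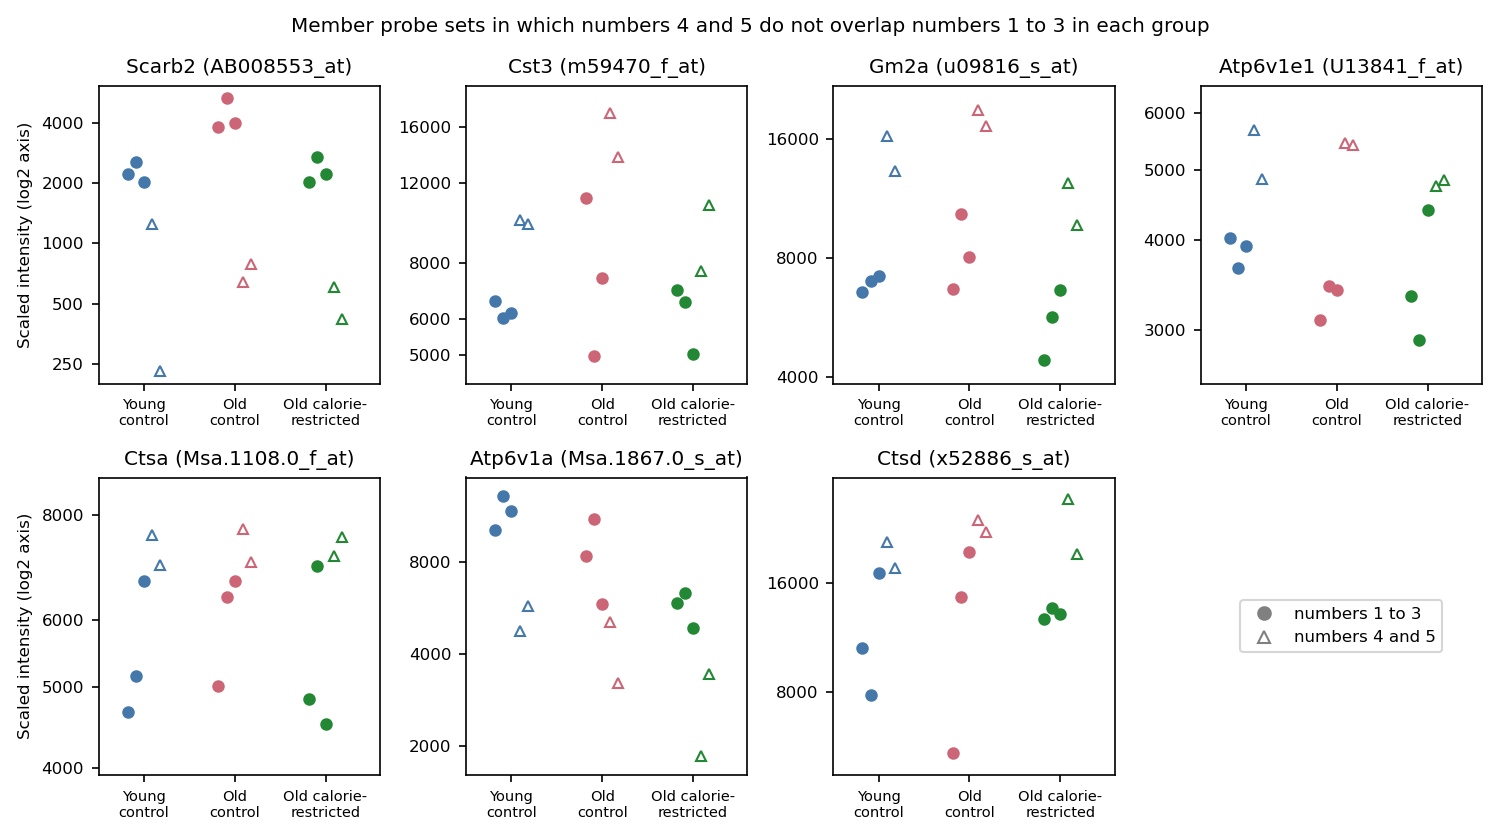
Scaled intensity on a log2 axis of the 7 member probe sets in which numbers 4 and 5 (open triangles) do not overlap numbers 1 to 3 (circles) in any group. Scarb2 and Atp6v1a are lower in numbers 4 and 5 of each group, and the other 5 probe sets are higher there.

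Other genes of the lysosome and its supply routes, a list of 74 with 27 tested probe sets of 26 genes, had 0 calls in any of the 3 comparisons. Their medians were 0.03 with age, 0.00 with the diet and -0.06 against young controls. The autophagy receptor Sqstm1 (u40930_s_at) read 0.41 ± 0.16 with age (adjusted p = 0.194) and -0.41 ± 0.16 with the diet (adjusted p = 0.247). Neu1 (aa267342_s_at), the sialidase that binds Glb1 and Ctsa, read -0.43 ± 0.19 (adjusted p = 0.25) and 0.17 ± 0.19. The pump subunits Atp6v0b (aa396633_s_at) and Atp6v1g1 (aa615550_s_at) read 0.20 ± 0.20 and -0.38 ± 0.15 with age, and 0.05 ± 0.20 and 0.24 ± 0.15 with the diet.

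Some markers of macrophages, cells rich in lysosomes, moved with the groups, and others did not pass. Of 11 tested probe sets of 9 macrophage genes, 7 rose with age and 4 fell with the diet, with medians of 0.79 and -0.70. The diet calls were Ctss and the probe sets of C1qb. Those of C1qb read 0.93, 0.79 and 0.93 with age and -1.28, -1.15 and -0.84 with the diet. Medians and sums count C1qb once per probe set. Ptprc (0.22 and -0.0), Cd14 (-0.19 and -0.16) and C1qc (0.58 and -0.48) did not pass with age or the diet. Ctss (aa255186_s_at), a cathepsin of antigen-presenting cells, read 1.61 ± 0.17 with age and -1.26 ± 0.17 with the diet, Laptm5 0.87 ± 0.20 and -0.70 ± 0.20 (adjusted p = 0.0866), and Cd68, which did not pass, 0.33 ± 0.20 and -0.34 ± 0.20. The summed intensity of the macrophage probe sets ranged from 35505 to 44162 in young, 57306 to 70582 in old and 37729 to 48810 in calorie-restricted animals. The other 5 of the 14 macrophage genes with a probe set lay too low to be tested. Among 7 tested probe sets of B cells and plasma cells, several of them of Ighm, 5 rose with age and 6 fell with the diet. What these cells contribute to the member values was not tested.

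The summed intensity of the 36 member probe sets overlapped between the groups. Its lowest, median and highest values were 337189, 352614 and 373410 in young controls. In old controls they were 301689, 317777 and 392475, and in calorie-restricted animals 286758, 319737 and 371845. The sum weights bright probe sets such as those of Lamp1 and Psap most.

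**Figure D4:**
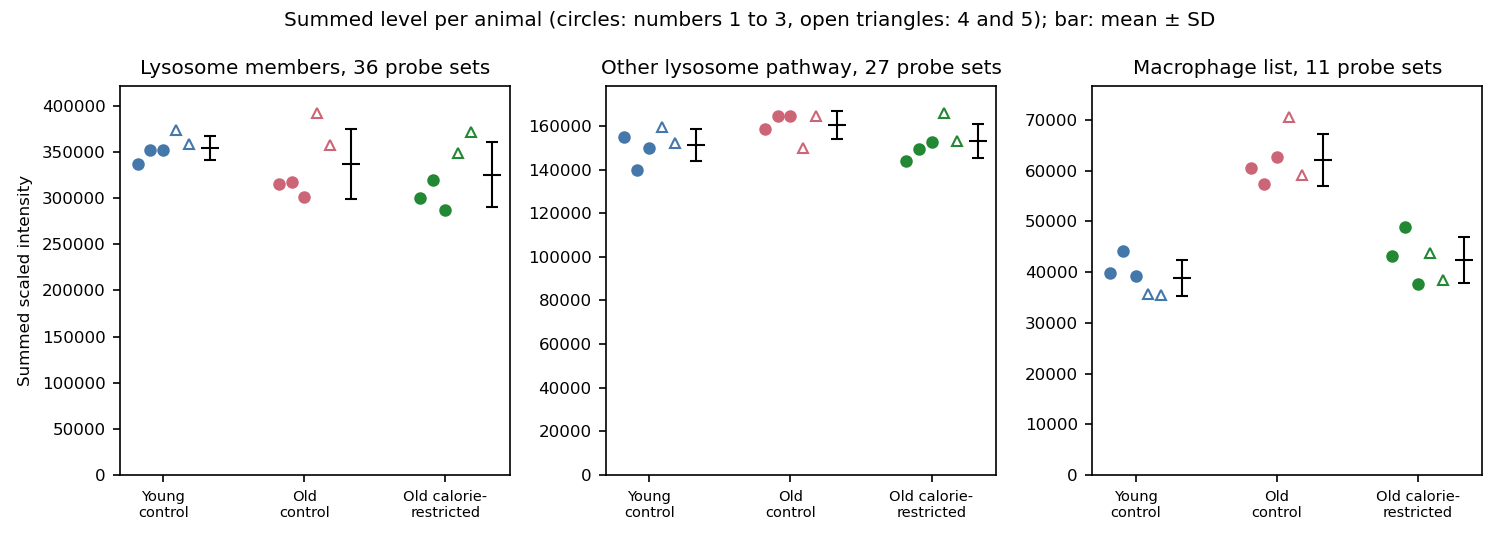
Summed scaled intensity per animal of the 36 member probe sets, of 27 probe sets of other lysosome pathway genes and of 11 probe sets of macrophage genes, with group mean and SD, on axes that start at 0. The member sums overlap between the 3 groups, whereas the macrophage sums of old controls (57306 to 70582) lie above those of both other groups.

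Kidney markers were present in every group. Slc34a1, the phosphate carrier of the proximal tubule, read 64860 ± 2872 (SD, n = 5) in young, 62970 ± 7749 in old and 62080 ± 7128 in calorie-restricted kidneys. Of 6 tested proximal tubule probe sets 1 fell with age (Gatm). Of 9 listed genes of intercalated cells, the kidney cells richest in the pump, only 2 had a probe set, Slc4a1 and Car2. Of their 3 tested probe sets 0 passed in any comparison, so these cells are little covered. Of 6 tested probe sets of the loop and distal tubule, 2 fell with age (Calb1 and Egf) and 1 rose with the diet (Egf). No podocyte marker was tested. On the second array type, rows of young arrays are exchanged between probe sets of targets that carry several of the suffixes i, f, s and r. No member belongs to such a target, but the order of the young values in the other rows was not checked. This bears on the ageing values and the values against young controls of the 12 member probe sets tested there. Among them are those of Ctsd, Ctsl, Lgmn, Atp6v1a and Atp6v1b2. Probe sets whose names end in f_at or s_at can share probes with related transcripts, so signal from close relatives cannot be told apart. The share of probe sets above the floor was 33.5% to 37.5% on arrays of the first type and 23.8% to 27.6% on those of the second, and the number of arrays limits the precision.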

How the data were processed

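Total RNA of kidney was measured in 3 groups of 5 numbered samples on each of 2 array types, 30 samples in all, grouped by their titles. The authors deposited intensities as whole numbers, 1 per probe set, of which 20.6% to 35.9% on an array were negative. Which software and background step the authors used is not given in the sources used here. Trimmed means of 1453 to 1483 on every array show that these deposited intensities had already been scaled.

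Arrays of a table were brought to 1 mean, computed without the top and bottom 2% of values (factors of 0.995 to 1.01). Values under the floor, the root mean square of all negative values of a table, were raised to it, and log2 was taken. Left out were 61 control probe sets per table and 16 other rows blank on young arrays. Tested were probe sets that exceeded the floor on 5 or more of 15 arrays (2609 and 1903). Each table was scaled on its own, and the arrays of an animal were joined by group and number. The 3 groups entered 1 limma fit (lmFit and eBayes, limma 3.58.1, R 4.3.3), and p-values were adjusted by Benjamini-Hochberg over the tables together. A change measured from values near the floor is understated.

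Gene symbols came from the array annotation, updated by gene number with a RefSeq table of GRCm38.p6 (5551 and 1993 probe sets), and 4567 probe sets of the second table have none. Members and lists were chosen with earlier results of these data known. Values in every animal are given for called probe sets and, in a role with none called, for the probe set with the largest change. Those of Gaa, Man2b1, Scarb2, Lamp2 and Ctsc were added after values were seen, as were the genes named from the other lists.

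Same-numbered young and old controls deviated together in every pair (r of 0.215 to 0.49 across probe sets), which meets the criterion set for a replicate block (every r over 0.1). In 0 of 5 pairs, however, was the r with the own number the highest, so the numbers are not shown to mark matched animals. For old and calorie-restricted animals r was -0.0142 to 0.403 and for young and calorie-restricted animals 0.0701 to 0.401, which does not pair them.

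On data simulated for 4512 probe sets, the ageing test found 71% of changes of log2 1 and 89% of log2 2 with 2.44% false calls, and the diet test 64% and 83% with 3.92%. The simulated noise was independent, with the spread of floored values and without the number sets. Simulated ageing changes were put into both old groups. Smaller changes were not simulated, so recovery at the sizes seen in the members with age and diet is not given. Alternatives were quantile normalization, no scaling, other floors and filters, an asinh transform, trend or robust moderation, fits of 2 groups, the block, the number sets, adjustment within a table, leaving out suffix classes and leaving out each animal. Figures were drawn with matplotlib 3.10.9.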

Additional observations from a re-analysis of the deposited data

Results flagged for a closer look

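In each group of 5 the animal farthest from the others was compared with the group's range by Dixon's criterion. Floored log2 values were used, over 107 groups of member probe sets, and 5 stood apart. Chance alone gives about 1 in 20 groups, so this number is close to what chance gives. Gusb (m63836_s_at) read 2051 in calorie-restricted animal 4, against -594 to 1127 in the others. Of those others 3 lay under the floor and were raised to it, so the flooring narrowed their range and the gap rests on it. Atp6v0d1 (U21549_s_at) read 5466 in calorie-restricted animal 2, against 3574 to 3940. Cstb (U59807_f_at) read 3445 in calorie-restricted animal 3, against 4303 to 4655. Young control 3 was low for Psap on the second array type, at 32648 against 37251 to 39091, and for Acp2, at 1945 against 3520 to 3837.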

How the results depend on the processing

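With age the count of member probe sets called was 1. It became 0 with the floor doubled, an asinh transform, no filter, a filter of 10 arrays, 2 groups only, numbers 4 and 5 alone, adjustment within each table, and either exclusion of suffix classes of the second table (1 of them chosen after seeing the data). It became 2 with the replicate block and with a term for the number set, where Cst3 joined Glb1, and lay between 0 and 1 when single animals were left out. It stayed at 1 with the floor halved and among numbers 1 to 3 alone, but there Glb1 was lost (adjusted p = 0.0984 and 0.0632) and the call was Ctsc and Scarb2, respectively, both higher. With the diet the count was 1. It became 0 with quantile normalization, the floor halved, no filter, a filter of 10 arrays, 2 groups only, and numbers 4 and 5 alone. It was also 0 with adjustment within each table. The count was 0 too without second-table probe sets of suffix i, f, s or r, although Cd63 stayed in the test (adjusted p = 0.0664). It became 2 with the replicate block and also with the term for the number set, where Gm2a was added, and 3 among numbers 1 to 3 alone, and it lay between 0 and 1 without single animals. For calorie-restricted against young kidneys, a comparison added after seeing the data, the count was 2. It became 1 with the floor doubled, no filter or a filter of 10 arrays, 0 among numbers 4 and 5 alone and 4 among numbers 1 to 3 alone (with Man2b1 and Atp6v1a), and it was 3 with 2 groups only (with Man2b1), with the replicate block and with the number-set term (with Atp6v1a). It lay between 1 and 2 without single animals. The cause was not tested, except that Glb1 dropped out of the test with the floor doubled or the filter of 10 arrays. No call changed sign in any of these. Glb1 kept its age call in 8 of 30 alternatives and its lower level than in young kidneys in 29 of 30, Cd63 kept its diet call in 14 of 32, and Lamp2 kept its call in 26 of 32. The replicate block ended none of these calls. Calls over all tested probe sets moved with these settings too, so the counts do not single out the members. In the fit described above 228, 118 and 258 of 4512 passed with age, with the diet and against young kidneys. In the same order 344, 224 and 439 passed with the number-set term and 274, 165 and 327 with the replicate block. Among numbers 1 to 3 alone 151, 251 and 334 passed, and among numbers 4 and 5 alone 118, 5 and 97. Probe sets near the floor, among them Glb1, Gusb, Hexa, Scarb2 and Arsa, are limited by signal over background.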
